A study of Mus musculus with 13 samples.

Results

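The genes described here are markers of neutrophil granules and neutrophil surface receptors, read in mouse rectum on the Affymetrix Mouse Gene 1.0 ST array. The list held 10 genes: S100a8, S100a9, Retnlg, Ltf, Camp, Csf3r, Trem1, Fpr1, Fpr2 and Clec4d. A gene was taken where a transcript cluster, the array's unit for 1 transcript, was annotated to that gene alone. Of the 10 genes, 8 were measured, each by 1 cluster, among 19938 genes on the array, and Fpr1 and Fpr2 were not analysed here. Values are log2 RMA levels, so a difference of 1 is a 2-fold difference, and the order of levels between genes carries no meaning because probes differ.

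The 13 arrays came from 5 rectal adenocarcinomas (numbers 1, 2, 3, 4 and 6), 4 pieces of inflamed rectal mucosa (numbers 1 to 4) and 4 pieces of normal rectal mucosa (numbers 1, 2, 4 and 6). Adenocarcinomas and inflamed mucosa were macrodissected from cryosections of rectal prolapses of α6fl/fl Villin-Cre mice, in which Cre is driven in the intestinal epithelium and α6 integrin is deleted there. Normal mucosa was scraped from matched mice that the labels' protocols call controls, although the genotype field gives all 13 samples as α6fl/fl Villin-Cre. Comparisons with normal mucosa therefore also compare the ways the tissue was collected. The adenocarcinomas came from mice of 53, 60, 60, 64 and 80 weeks (numbers 1, 2, 3, 4 and 6), the inflamed pieces from mice of 53, 60, 60 and 64 weeks, and the normal pieces from mice of 53, 60, 64 and 70 weeks. Numbers 1 and 6 were female in each group that held them, and all other numbers were male. Adenocarcinoma and inflamed mucosa of 1 number shared sex and age and were taken as pairs. The main limma fit did not use the pairs, so its values are unpaired. The pairs entered in differences by number and as a block in alternative fits.

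Neutrophils are made in the bone marrow and carry antimicrobial proteins in granules that form in sequence, with primary granules filled in promyelocytes and the later ones in maturing cells. Lactoferrin and cathelicidin are stored in the later granules, whereas the calcium-binding proteins S100a8 and S100a9 form a complex, calprotectin, that fills the cytoplasm of mature neutrophils. Csf3r receives G-CSF, the growth factor of the lineage, and Trem1 and Clec4d are activating receptors that signal through the adaptors Tyrobp and Fcer1g. In the large bowel, neutrophils are few in healthy mucosa and enter in inflammation, and calprotectin and lactoferrin in stool are used to follow bowel inflammation.

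On these arrays 6 of the 8 genes, namely S100a8, S100a9, Retnlg, Csf3r, Trem1 and Clec4d, were higher in adenocarcinoma than in normal mucosa, by 2.03-fold to 18.0-fold, where 16.4% of all 19938 genes tested were called higher and 19.4% lower (limma, Benjamini-Hochberg adjusted p below 0.05). Against inflamed mucosa 5 of the 8 were higher in adenocarcinoma, all of those but Clec4d, by 2.02-fold to 10.2-fold, where 2.91% of all genes were called higher and 4.21% lower. Inflamed mucosa differed from normal mucosa in 2 of the 8, with Retnlg higher and Camp lower, where 13.7% of all genes were called higher and 13% lower. In these bulk pieces, fewer cells of a type and less RNA per cell cannot be told apart.

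Some facts of the arrays bear on these values. Array medians lay between 6.41 and 6.59, and correlations between arrays between 0.943 and 0.990. Transcripts that must be absent, Xist on male arrays and 3 Y-linked genes on female arrays, still read 3.60 to 5.57, so values up to 5.57 are called background-like below. The arrays met their sex labels in 13 of 13 cases. Normal mucosa 1 and adenocarcinoma 2 stood apart in markers of squamous epithelium, the lining of the anal canal next to the rectum. The mean of the 15 squamous markers was 9.83 in normal mucosa 1 against 5.93 to 6.28 in the other normal arrays. It was 8.43 in adenocarcinoma 2, 7.46 in adenocarcinoma 3 and 6.50 to 6.92 in the other adenocarcinomas, against 5.81 to 6.27 in inflamed mucosa. The mean of 10 intestinal epithelium markers lay between 11.44 and 11.69 on all arrays.

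The upstream sequences of 4 of the genes are shown because S100a8, S100a9 and Retnlg were high together in the adenocarcinomas while Ltf followed other arrays. They are the 250 bases before the RefSeq start of each gene on build GRCm38.p6, written 5′ to 3′ along the gene. S100a8 and S100a9 lie on chromosome 3, at chr3:90668821-90669070 on the plus strand and chr3:90695722-90695971 on the minus strand. Retnlg lies at chr16:48872358-48872607 and Ltf at chr9:111019042-111019291, both on the plus strand. Capitals mark matches, on either strand, to TTGCNNAA, a form of the site of C/EBP factors, or to GAGGAA, a form of the site of the myeloid factor PU.1, and matches on the gene's own strand to TATAAA, the TATA box.
S100a8 upstream of the start: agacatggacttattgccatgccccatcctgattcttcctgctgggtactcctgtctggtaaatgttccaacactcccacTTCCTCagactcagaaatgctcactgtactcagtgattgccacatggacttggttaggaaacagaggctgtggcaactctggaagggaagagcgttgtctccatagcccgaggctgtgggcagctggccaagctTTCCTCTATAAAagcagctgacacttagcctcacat
S100a9 upstream of the start: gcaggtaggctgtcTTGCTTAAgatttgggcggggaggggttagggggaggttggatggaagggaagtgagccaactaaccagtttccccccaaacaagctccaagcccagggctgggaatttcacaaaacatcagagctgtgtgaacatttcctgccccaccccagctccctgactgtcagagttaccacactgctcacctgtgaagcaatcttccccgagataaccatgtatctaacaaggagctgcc
Retnlg upstream of the start: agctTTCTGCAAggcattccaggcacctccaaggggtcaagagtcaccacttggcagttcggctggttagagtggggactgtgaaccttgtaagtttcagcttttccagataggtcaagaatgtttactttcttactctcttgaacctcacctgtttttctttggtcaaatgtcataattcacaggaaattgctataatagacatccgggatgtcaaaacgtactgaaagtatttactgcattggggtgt
Ltf upstream of the start: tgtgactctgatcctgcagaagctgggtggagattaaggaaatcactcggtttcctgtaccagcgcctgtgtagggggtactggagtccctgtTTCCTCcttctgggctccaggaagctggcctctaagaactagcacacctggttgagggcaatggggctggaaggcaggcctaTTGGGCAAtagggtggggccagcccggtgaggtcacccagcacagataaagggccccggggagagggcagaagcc
TTGCNNAA was found in 3 of the 8 windows, those of S100a9 (bases -236 to -229 from the start), Retnlg (-246 to -239) and Ltf (-75 to -68), and in 9.56% of 32851 RefSeq windows of the same length. GAGGAA was found in 5 of the 8 windows, those of S100a8, Csf3r, Clec4d, Ltf and Trem1, and in 23.3% of all windows. TATAAA was found in S100a8 (-30 to -25), directly after a GAGGAA match on the opposite strand (-36 to -31), and in 7.59% of all windows. No motif of the 3 was found in all 6 genes that were higher in adenocarcinoma than in normal mucosa, Camp held none of them, and a match is a string of letters, not a shown binding site.

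S100a8 and S100a9 are described first, then the granule genes and the receptors. S100a9 (cluster 10499861) read 8.51, 9.07, 8.66, 10.42 and 10.91 in adenocarcinomas 1, 2, 3, 4 and 6, 6.28, 5.88, 6.46 and 6.04 in inflamed mucosa 1 to 4, and 7.53, 6.38, 6.40 and 5.87 in normal mucosa 1, 2, 4 and 6. Every adenocarcinoma lay above every other array, with adenocarcinomas 4 and 6 highest and normal mucosa 1 the highest of the rest. S100a9 was higher in adenocarcinoma than in normal mucosa by 2.97 ± 0.46 (difference of log2 means ± SE, n = 5 and 4, 7.83-fold, limma, adjusted p = 0.000259). Against inflamed mucosa it was higher by 3.35 ± 0.46 (10.2-fold, limma, adjusted p = 0.000758). Both calls also held in a test against a 2-fold threshold (limma, adjusted p = 0.0222 and 0.0493).

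S100a8 (cluster 10493831), the partner of S100a9, read 6.87, 7.45, 6.90, 9.48 and 10.17 in the adenocarcinomas, 5.66, 5.24, 5.55 and 5.39 in inflamed mucosa, and 7.05, 5.63, 5.68 and 5.51 in normal mucosa, in the same order. The adenocarcinomas fell into high values in numbers 4 and 6 and lower values in the other 3, and normal mucosa 1 lay above adenocarcinomas 1 and 3. S100a8 was higher in adenocarcinoma than in normal mucosa by 2.21 ± 0.61 (n = 5 and 4, 4.62-fold, limma, adjusted p = 0.0129). Against inflamed mucosa, with no overlap, it was higher by 2.72 ± 0.61 (6.57-fold, limma, adjusted p = 0.0154), which did not pass when inflamed mucosa 2 was left out (2.64, limma, adjusted p = 0.0517). Inflamed mucosa was background-like in 3 of 4 arrays, so the size of the fold against it depends on that background. The level of S100a9 minus that of S100a8 was 1.65, 1.62 and 1.77 in adenocarcinomas 1, 2 and 3 and 0.94 and 0.74 in adenocarcinomas 4 and 6, a gap looked at after the values were seen and not tested.

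Retnlg, the resistin-like gamma gene, is expressed in mouse bone marrow and neutrophils. Retnlg (cluster 10436100) read 8.95, 9.58, 8.89, 10.40 and 10.46 in the adenocarcinomas, 6.19, 8.20, 7.67 and 7.31 in inflamed mucosa, and 6.05, 5.18, 5.25 and 5.45 in normal mucosa. The 3 groups did not overlap, with inflamed mucosa in between and inflamed mucosa 1 its lowest array. Retnlg was higher in adenocarcinoma than in normal mucosa by 4.17 ± 0.41 (n = 5 and 4, 18.0-fold, limma, adjusted p = 4.98e-06) and higher than in inflamed mucosa by 2.31 ± 0.41 (4.97-fold, limma, adjusted p = 0.00369). It was also higher in inflamed than in normal mucosa by 1.86 ± 0.43 (n = 4 and 4, 3.63-fold, limma, adjusted p = 0.00653). Normal mucosa was background-like in 3 of 4 arrays, so the size of the folds against it depends on that background.

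**Figure D1:**
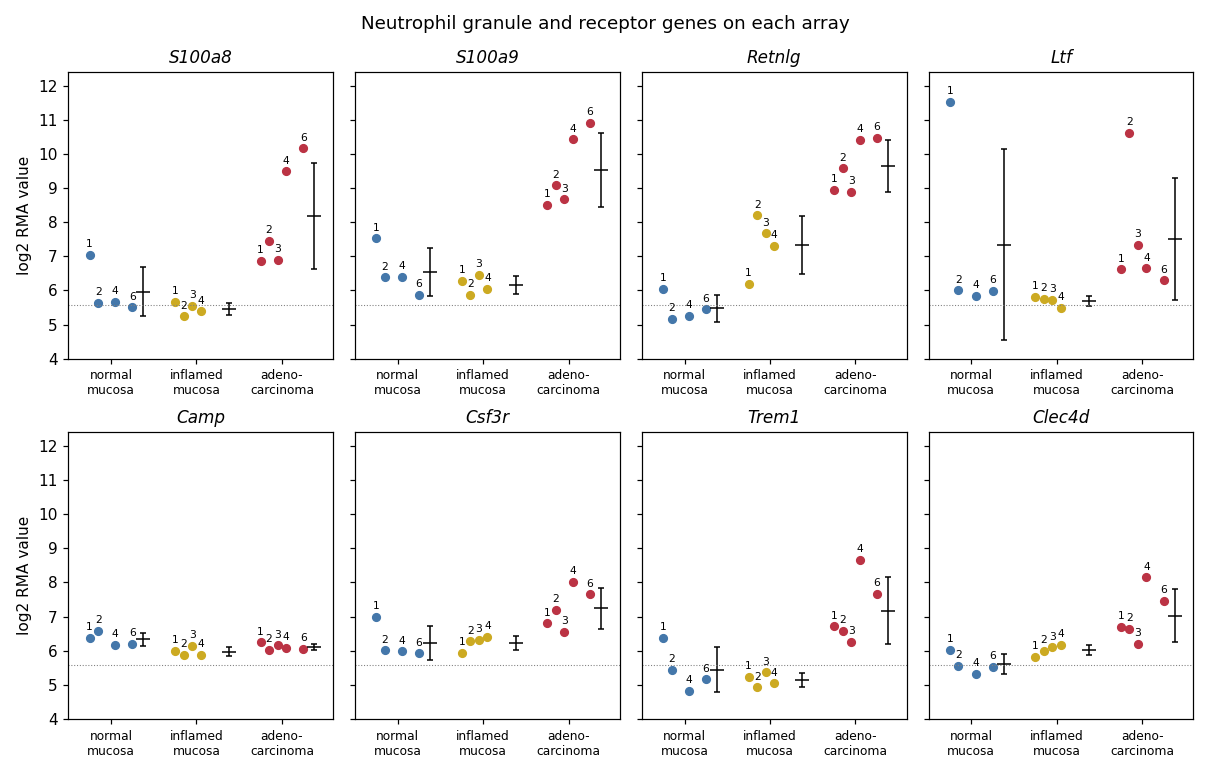
Log2 RMA value (vertical axis) of the 8 measured genes on each array, 1 point per array labelled with its number, with mean ± SD beside each group and a dotted line at 5.57, the highest value of a transcript known to be absent. Adenocarcinomas 4 and 6 were the highest arrays of their group in 6 genes, Ltf was highest in normal mucosa 1 and adenocarcinoma 2, and Camp stayed between 5.88 and 6.59.

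Retnlg has a close relative in the bowel, Retnlb, which is a product of goblet cells induced by microbes and inflammation, and Retnlb was looked at beside it after the values were seen. Retnlb read 11.41, 12.25, 11.64, 11.50 and 10.30 in the adenocarcinomas, 10.52, 11.92, 9.16 and 11.85 in inflamed mucosa, and 8.37, 5.31, 6.47 and 8.22 in normal mucosa. Both prolapse tissues lay above normal mucosa in Retnlb and overlapped each other. Against normal mucosa it was higher by 4.33 in adenocarcinoma (limma, adjusted p = 0.000259) and by 3.77 in inflamed mucosa (adjusted p = 0.00172). The adenocarcinoma minus inflamed difference was 0.56 (adjusted p = 0.774). Retnlb moved with Retnlg against normal mucosa, and the normal arrays had the same order in both genes. Among the adenocarcinomas number 6 was highest in Retnlg (10.46) and lowest in Retnlb (10.30). Inflamed mucosa 2 was the highest of its group in both, and inflamed mucosa 3 the lowest in Retnlb but not in Retnlg. Whether the Retnlb transcript binds the Retnlg probes was not tested. Another relative, Retnla, chosen in the same way, read between 4.06 and 5.34 on all arrays.

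**Figure D2:**
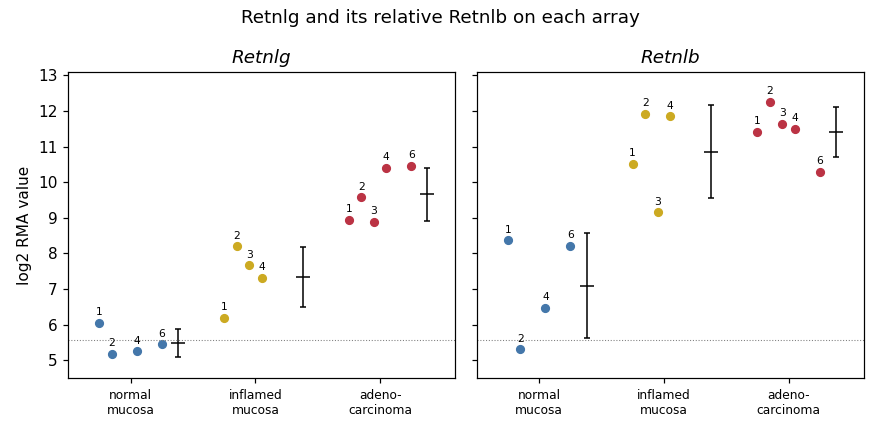
Log2 RMA value (vertical axis) of Retnlg and Retnlb on each array, 1 point per array labelled with its number, with mean ± SD beside each group and a dotted line at 5.57. Retnlg set the 3 groups apart, whereas inflamed mucosa (9.16 to 11.92) and adenocarcinoma (10.30 to 12.25) overlapped in Retnlb.

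Ltf encodes lactoferrin, the iron-binding protein of secondary granules, which glandular and some surface epithelia also secrete. Ltf (cluster 10589703) read 6.62, 10.62, 7.33, 6.65 and 6.30 in the adenocarcinomas, 5.81, 5.75, 5.73 and 5.49 in inflamed mucosa, and 11.53, 6.0, 5.84 and 6.0 in normal mucosa. It was highest in normal mucosa 1 and adenocarcinoma 2, then in adenocarcinoma 3, and adenocarcinoma 6, the highest in S100a8, S100a9 and Retnlg, was the lowest adenocarcinoma. The squamous marker Krt5, a keratin of basal squamous cells chosen after its values were seen, read 12.10 in normal mucosa 1, 11.17 in adenocarcinoma 2, 10.70 in adenocarcinoma 3 and at most 7.38 elsewhere. The 3 arrays highest in Ltf were thus the 3 highest in Krt5 and in the mean of the squamous markers. Single markers did not all share this order. Among the adenocarcinomas number 3 came next after number 2 in Krt14, Krt6a, Krt6b, Dsg3, Sprr1b and Trp63. It was the lowest adenocarcinoma in, for example, Krt13 (7.85) and Sprr3 (4.91). Krt1 and Krt10 were high in normal mucosa 1 alone (8.43 and 10.84). The part of squamous epithelium in the Ltf values was not tested.

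No comparison of Ltf passed over all arrays. The difference was 0.16 ± 1.09 for adenocarcinoma minus normal mucosa (limma, adjusted p = 0.913), 1.81 ± 1.09 for adenocarcinoma minus inflamed mucosa (adjusted p = 0.421) and -1.65 ± 1.15 for inflamed minus normal mucosa (adjusted p = 0.282). Adenocarcinoma nevertheless lay above inflamed mucosa on every array. Without both normal mucosa 1 and adenocarcinoma 2, an alternative chosen after seeing the data, Ltf was higher in adenocarcinoma than in normal mucosa by 0.78 (limma, adjusted p = 0.0101) and, against inflamed mucosa, by 1.03 (adjusted p = 0.00558). S100a9 and Retnlg kept their calls without these arrays, with S100a9 higher than in normal mucosa by 3.41 and Retnlg by 4.38. Normal mucosa 1 was also the highest array outside the adenocarcinomas in S100a8 (7.05), S100a9 (7.53) and the receptors Csf3r (6.98) and Trem1 (6.37). It was not the highest of them in Retnlg (6.05), Clec4d (6.02) or Camp (6.38). The part of squamous epithelium, or of any other cells, in these values was not tested either.

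**Figure D3:**
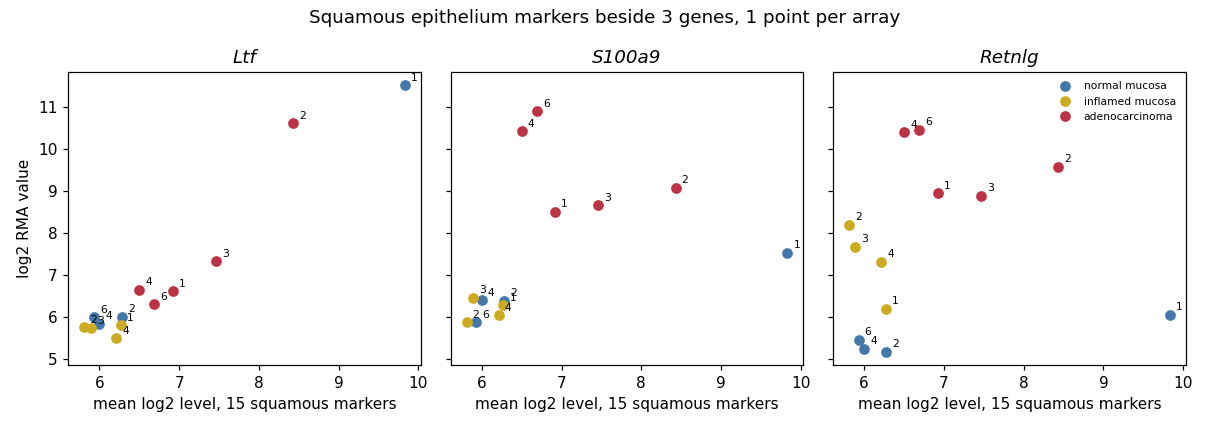
Log2 RMA value of Ltf, S100a9 and Retnlg (vertical axes) against the mean log2 level of 15 squamous epithelium markers (horizontal axis), 1 point per array labelled with its number and coloured by group. Normal mucosa 1 (9.83) and adenocarcinoma 2 (8.43) were highest on the horizontal axis and in Ltf, while S100a9 and Retnlg were highest in adenocarcinomas 4 and 6.

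Camp encodes the cathelicidin CRAMP, an antimicrobial peptide precursor of secondary granules. Camp (cluster 10597098) read 6.25, 6.03, 6.16, 6.09 and 6.06 in the adenocarcinomas, 6.0, 5.88, 6.14 and 5.88 in inflamed mucosa, and 6.38, 6.59, 6.17 and 6.20 in normal mucosa. All 13 values lay within a narrow band just above the range of absent transcripts, and the adenocarcinomas high in S100a8 were not high in Camp. Camp was lower in inflamed than in normal mucosa and differed by -0.36 ± 0.10 (n = 4 and 4, 1.29-fold, limma, adjusted p = 0.0207), with no overlap. That call was lost when the fit held the 2 groups alone (adjusted p = 0.0561) and without inflamed mucosa 2, inflamed mucosa 4 or normal mucosa 2 (adjusted p = 0.0634, 0.0584 and 0.0585). The differences from adenocarcinoma did not pass (-0.22 ± 0.10 against normal mucosa, limma, adjusted p = 0.0968, and 0.15 ± 0.10 against inflamed mucosa, adjusted p = 0.492).

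The receptor Trem1 amplifies inflammatory signals in neutrophils and monocytes. Trem1 (cluster 10445746) read 6.72, 6.58, 6.26, 8.65 and 7.67 in the adenocarcinomas, 5.23, 4.93, 5.37 and 5.05 in inflamed mucosa, and 6.37, 5.43, 4.83 and 5.16 in normal mucosa. Inflamed mucosa was background-like on all 4 arrays and normal mucosa on 3 of 4, and normal mucosa 1 lay above adenocarcinoma 3. Trem1 was higher in adenocarcinoma than in normal mucosa by 1.73 ± 0.42 (3.31-fold, limma, adjusted p = 0.00619) and, against inflamed mucosa, by 2.03 ± 0.42 (limma, adjusted p = 0.00976). Set against 5.57, the top of the range of absent transcripts, in place of the background-like inflamed values, the adenocarcinoma mean was 3.04-fold higher. That fold carries no error, and Trem1 did not pass a test against a 2-fold threshold in either comparison.

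Clec4d, a C-type lectin receptor of myeloid cells that recognises fungal and mycobacterial surfaces, read 6.71, 6.64, 6.19, 8.15 and 7.47 in the adenocarcinomas, 5.83, 6.0, 6.10 and 6.18 in inflamed mucosa, and 6.02, 5.56, 5.32 and 5.53 in normal mucosa (cluster 10541614). The adenocarcinomas lay above all other arrays, but adenocarcinoma 3 exceeded inflamed mucosa 4 by the smallest margin shown. Clec4d was higher in adenocarcinoma than in normal mucosa by 1.42 ± 0.30 (2.68-fold, limma, adjusted p = 0.00274), where normal mucosa was background-like on 3 of 4 arrays and the size of the fold depends on that background. The adenocarcinoma minus inflamed difference of 1.00 ± 0.30 did not pass (limma, adjusted p = 0.065), and passed without adenocarcinoma 3 (1.21, adjusted p = 0.0191).

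Csf3r, the G-CSF receptor, read 6.80, 7.20, 6.56, 8.03 and 7.65 in the adenocarcinomas, 5.94, 6.28, 6.31 and 6.41 in inflamed mucosa, and 6.98, 6.01, 5.99 and 5.92 in normal mucosa (cluster 10508074). Normal mucosa 1 lay above adenocarcinomas 1 and 3, and no inflamed array reached the lowest adenocarcinoma. Csf3r was higher in adenocarcinoma than in normal mucosa by 1.02 ± 0.28 (2.03-fold, limma, adjusted p = 0.0131). Against inflamed mucosa it was higher by 1.01 ± 0.28 (2.02-fold, limma, adjusted p = 0.0457), and this call was lost in 18 of 28 alternative fits, among them the fit with all arrays blocked by number (0.99, adjusted p = 0.105). It was lost without any 1 of adenocarcinomas 2, 4 and 6, the 4 inflamed arrays and normal mucosa 2, 4 and 6 (adjusted p = 0.0515 to 0.111). In the inflamed minus normal comparison Csf3r differed by 0.01 ± 0.30 (adjusted p = 0.984).

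**Figure D4:**
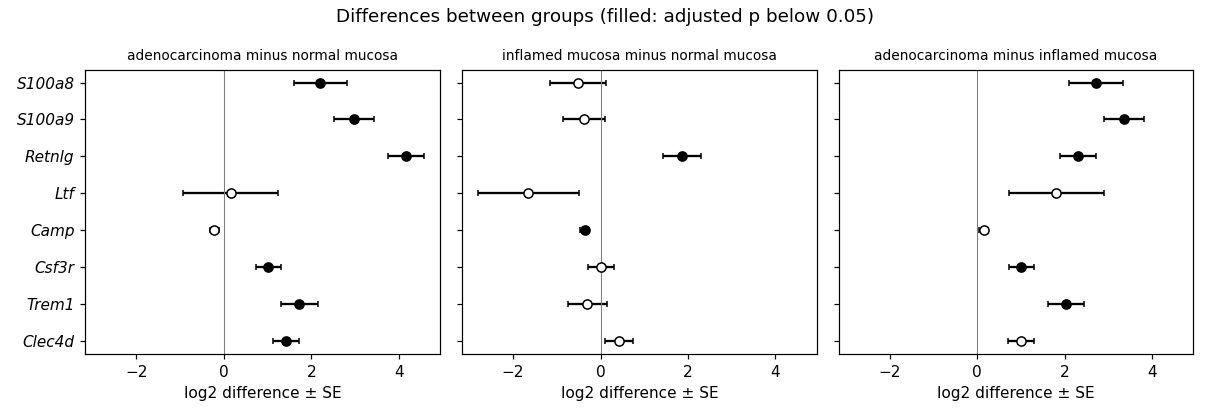
Log2 difference ± SE (horizontal axis) of the 8 genes in the 3 comparisons, from 1 limma fit of 13 arrays, with filled points where the adjusted p was below 0.05. In adenocarcinoma minus normal mucosa 6 points are filled, all above 0, in inflamed minus normal mucosa 2 are filled, and in adenocarcinoma minus inflamed mucosa 5 are filled, all above 0.

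Set against all genes, the list stood as follows. In adenocarcinoma minus normal mucosa 6 of 8 genes were called higher and 0 lower, while 35.8% of all genes were called in either direction. Over all genes that split was 3266 higher and 3867 lower, and 2491 and 8612 with arrays centred on the median of named genes, a scaling under which the 6 genes were still called higher. The median difference of the 8 genes was 1.57, beside -0.10 over all genes, and 3 of 8 genes (S100a9, Retnlg and Clec4d) had every adenocarcinoma above every normal array, as 13% of all genes did, while 0 of 8 had every adenocarcinoma below, as 13.9% of all genes did. In inflamed minus normal mucosa 1 of 8 was called higher and 1 lower, against 26.7% of all genes called in either direction, which is close to the background. The median there was -0.33, beside -0.09 over all genes. Values of S100a8, S100a9 and Trem1 were -0.51 ± 0.64 (adjusted p = 0.555), -0.38 ± 0.48 (adjusted p = 0.558) and -0.30 ± 0.44 (adjusted p = 0.612) in that comparison, and Clec4d differed by 0.42 ± 0.32 (adjusted p = 0.326). Inflamed mucosa lay above every normal array in Retnlg alone, as 12.0% of all genes did, and below every normal array in Ltf and Camp, as 15.5% of all genes did. Whether Retnlg differed from the other genes of the list in this comparison was not tested.

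In adenocarcinoma minus inflamed mucosa 5 of 8 genes were called higher and 0 lower, against 7.12% of all genes called in either direction. The median of the 8 differences was 1.92, beside -0.01 over all genes. In 7 of 8 genes, all but Camp, every adenocarcinoma lay above every inflamed array, as in 5.27% of all genes, and 0 of 8 had every adenocarcinoma below, as 6.51% of all genes did. For each of these 7 the two-sided exact permutation test gave p = 0.0159, the smallest that 5 against 4 arrays allow, and 0.0382 after Benjamini-Hochberg adjustment over 24 tests. That p restates the lack of overlap and takes no account of the pairs. An exact test within 4 pairs cannot go below 0.125, and in limma with the pairs as the block Ltf and Clec4d did not pass (adjusted p = 0.0728 and 0.0791). In adenocarcinoma minus normal mucosa that test gave 0.0159 for S100a9, Retnlg and Clec4d (adjusted 0.0382), 0.0317 for Trem1 (adjusted 0.0543) and 0.0476 for S100a8 and Csf3r (adjusted 0.0714), so 3 of the 6 calls did not pass it after adjustment. In inflamed minus normal mucosa Retnlg, Ltf and Camp reached the smallest p that 4 against 4 arrays allow in the exact permutation test, 0.0286 (adjusted 0.0528). The comparisons share arrays, so their counts are not independent of each other.

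The pairs of 1 number gave the same direction. Each of the 8 genes was higher in the adenocarcinoma in 4 of 4 pairs, Camp by no more than 0.25, as 13.6% of all genes were, while 16.8% of all genes were lower in 4 of 4. S100a9 differed by 2.23, 3.20, 2.20 and 4.38 in pairs 1 to 4, Retnlg by 2.75, 1.38, 1.22 and 3.09, and Trem1 by 1.48, 1.66, 0.89 and 3.61. Pair 4 held the largest difference in S100a8, S100a9, Retnlg, Csf3r, Trem1 and Clec4d. For Ltf it was pair 2 (4.87), whose adenocarcinoma was also high in squamous markers. With these 4 pairs as the block, 5 of the 8 genes were called higher, Csf3r among them (0.91, limma, adjusted p = 0.0277), where 3.67% of all genes were called higher and 5.89% lower.

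**Figure D5:**
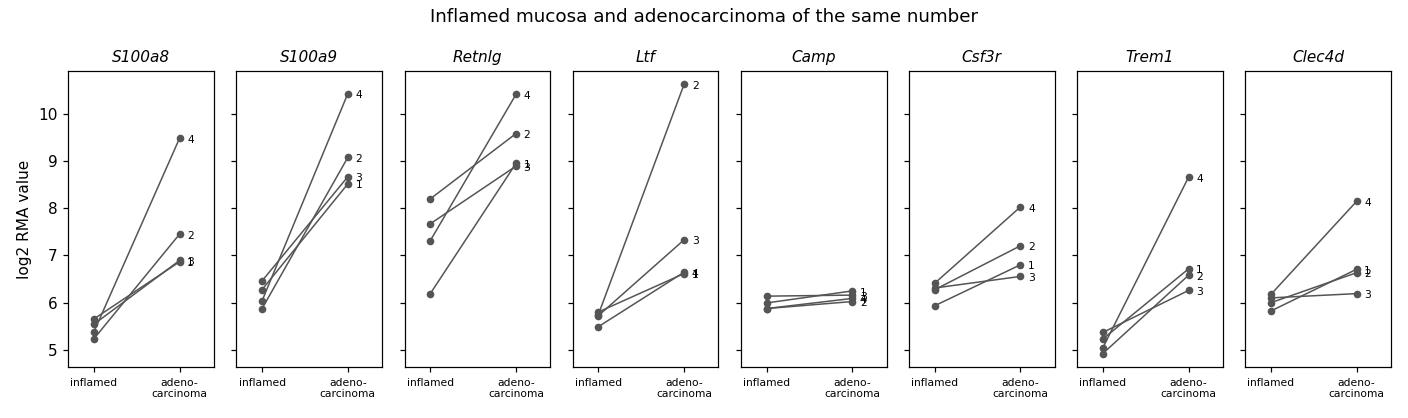
Log2 RMA value (vertical axis) of the 8 genes in inflamed mucosa and adenocarcinoma 1 to 4, with a line for each pair of 1 number, which shared sex and age. All lines run upward to the adenocarcinoma; for S100a9 the differences are 2.20 to 4.38 and for Camp 0.02 to 0.25.

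The adenocarcinomas also differed among themselves. Numbers 4 and 6 were the 2 highest in 6 of the 8 genes, S100a8, S100a9, Retnlg, Csf3r, Trem1 and Clec4d. S100a8 spanned 6.87 to 10.17 across the adenocarcinomas, S100a9 8.51 to 10.91 and Retnlg 8.89 to 10.46. Number 4 was highest in the 3 receptors and number 6 in S100a8, S100a9 and Retnlg. Numbers 4 and 6 came from the oldest tumour-bearing mice, a male of 64 weeks and a female of 80 weeks, and the part of age in the order was not tested.

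Other neutrophil granule genes followed in part. Of 15 measured, 6 were called higher and 2 lower in adenocarcinoma than in normal mucosa (median difference 0.09), 3 higher and 1 lower in inflamed than in normal mucosa, and 4 higher and 0 lower in adenocarcinoma than in inflamed mucosa. Over all genes the shares called higher and lower were 16.4% and 19.4%, 13.7% and 13%, and 2.91% and 4.21%, in the same order. The counts in inflamed against normal mucosa lay near these shares. Mmp8, the neutrophil collagenase, read 6.15, 8.05, 6.89, 9.68 and 8.59 in the adenocarcinomas, 4.59 to 4.75 in inflamed mucosa and 4.27 to 4.57 in normal mucosa. It was background-like in every inflamed and normal array and highest in adenocarcinomas 4 and 6. Mmp8 was higher by 3.45 ± 0.51 than in normal mucosa (limma, adjusted p = 0.000181) and by 3.20 ± 0.51 than in inflamed mucosa (adjusted p = 0.002). With 5.57 in place of the dim values its mean was 4.93-fold higher in both, a fold without an error. Against inflamed mucosa Mmp8 did not pass a 2-fold threshold (limma, adjusted p = 0.146). Mmp9, the gelatinase of tertiary granules, was higher by 2.05 ± 0.19 and 1.81 ± 0.19 in the same comparisons (limma, adjusted p = 3.79e-06 and 0.000126).

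Ngp, a granule protein related to cathelicidin, read 6.54, 5.41, 8.56, 8.09 and 8.10 in the adenocarcinomas, at most 6.12 in inflamed mucosa and at most 5.46 in normal mucosa. Adenocarcinoma 2 was as low as the normal arrays. Ngp was higher in adenocarcinoma than in inflamed mucosa by 1.99 ± 0.51 (limma, adjusted p = 0.0315), a call lost in 12 of 28 alternative fits. It was lost without any 1 of adenocarcinomas 3, 4 and 6 and inflamed mucosa 1, 2 and 4 (adjusted p = 0.0592 to 0.0978). It was also lost against a 2-fold threshold (adjusted p = 1.0), with age as a covariate (0.0544), with the 2 groups alone (0.0603), with array weights (0.0615), with trend and robust variance (0.064) and over all clusters (0.0682). Lcn2, an iron-siderophore binder of secondary granules that bowel epithelium also makes, was higher in both prolapse tissues than in normal mucosa. The difference was 3.84 ± 0.58 in adenocarcinoma (14.3-fold, limma, adjusted p = 0.000225) and 2.54 ± 0.61 in inflamed mucosa (5.80-fold, limma, adjusted p = 0.00872). The adenocarcinoma minus inflamed difference of 1.30 ± 0.58 did not pass (limma, adjusted p = 0.235). Lyz2, the lysozyme of macrophages and neutrophils, was higher by 2.75 ± 0.30 (limma, adjusted p = 2.15e-05) in inflamed than in normal mucosa. In adenocarcinoma it was higher than in normal mucosa by 1.93 ± 0.28 (limma, adjusted p = 0.000167). Cd177, a neutrophil surface protein, was higher in inflamed than in normal mucosa by 1.48 ± 0.39 (limma, adjusted p = 0.014). Cd177 read 10.84 to 11.42 in inflamed mucosa, 9.70 to 11.20 in adenocarcinoma and 8.31 to 10.34 in normal mucosa. It thus did not follow Mmp8, which was background-like in inflamed and normal mucosa, and the cells behind Cd177 were not tested. The primary granule gene Elane, neutrophil elastase, read between 5.71 and 6.29 on all arrays, just above the range of absent transcripts. It was lower in adenocarcinoma than in normal mucosa, with a difference of -0.37 ± 0.08 (limma, adjusted p = 0.00274), and lower in inflamed mucosa, with -0.33 ± 0.08 (adjusted p = 0.00988). The adenocarcinoma difference lay between -0.50 and -0.23 over 27 alternative fits, 1 of which lost the call, beside a median of -0.1 over all genes. Prtn3, proteinase 3 of the primary granules, was the other granule gene called lower in adenocarcinoma than in normal mucosa, with a difference of -0.29 ± 0.11 (limma, adjusted p = 0.0466), and this call was lost in 19 of 27 alternative fits (adjusted p = 0.0505 to 1.0). Mpo, Prtn3 and Ctsg, primary granule genes chosen after their values were seen, lay between 4.81 and 6.40 on all arrays.

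Of 23 measured surface and cytoplasmic neutrophil genes, 12 were called higher and 2 lower in adenocarcinoma than in normal mucosa (median 0.76), 8 and 3 in inflamed against normal mucosa (median -0.06), and 4 and 1 in adenocarcinoma against inflamed mucosa (median 0.34). The shares of all genes called higher and lower were 16.4% and 19.4%, 13.7% and 13%, and 2.91% and 4.21%, in that order. Cxcr2, the receptor for the neutrophil-attracting CXC chemokines, read 7.29, 7.70, 7.15, 9.10 and 8.26 in the adenocarcinomas, 5.43, 5.54, 5.45 and 4.95 in inflamed mucosa, and 7.29, 4.94, 4.28 and 5.04 in normal mucosa. Normal mucosa 1 equalled adenocarcinoma 1 and lay above adenocarcinoma 3, and all other arrays outside the adenocarcinomas were background-like. Cxcr2 was higher in adenocarcinoma than in inflamed mucosa by 2.56 ± 0.51 (limma, adjusted p = 0.00823, or 5.03-fold for the means with 5.57 in place of the dim values). Against normal mucosa it was higher by 2.51 ± 0.51 (limma, adjusted p = 0.00199), or by 3.15 without normal mucosa 1 (adjusted p = 3.32e-05). Over all arrays Cxcr2 did not pass a 2-fold threshold in either comparison. Il1b, the inflammatory cytokine, was higher than in inflamed mucosa by 2.69 ± 0.54 (6.44-fold, adjusted p = 0.00864) and Il1r2, its decoy receptor, by 1.68 ± 0.34 (3.20-fold, adjusted p = 0.00835).

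Fcgr3 and C5ar1, receptors for antibody and complement that macrophages share with neutrophils, were higher in both prolapse tissues than in normal mucosa. Fcgr3 was higher by 1.78 ± 0.20 in adenocarcinoma (limma, adjusted p = 2.22e-05) and by 2.04 ± 0.22 in inflamed mucosa (adjusted p = 1.81e-05). Mxd1, a transcription factor of mature neutrophils and of differentiated epithelium, was lower in adenocarcinoma than in normal mucosa and fell by 1.28 on the log2 scale (limma, adjusted p = 9.34e-06). In inflamed minus normal mucosa it also differed, by -0.66 ± 0.14 (limma, adjusted p = 0.00441). Ly6g, the gene of the usual neutrophil surface marker, was chosen after its values were seen. It read 12.97 to 13.19 in adenocarcinoma, 12.43 to 13.01 in inflamed mucosa and 13.01 to 13.17 in normal mucosa. Ly6g was lower in inflamed than in normal mucosa, with a difference of -0.38 ± 0.11 (limma, adjusted p = 0.0202), a call lost in 5 of 27 alternative fits, among them the one without inflamed mucosa 2 (adjusted p = 0.0607). The differences of -0.04 between adenocarcinoma and normal mucosa (adjusted p = 0.76) and 0.34 between adenocarcinoma and inflamed mucosa (adjusted p = 0.0644) did not pass. Whether the cluster binds related Ly6 transcripts was not tested.

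Among 20 ligands and signalling partners of the list, 8 were called higher and 0 lower in adenocarcinoma than in normal mucosa (median 0.13), 4 and 1 in inflamed against normal mucosa, and 2 and 0 in adenocarcinoma against inflamed mucosa. Of all genes, 16.4% and 19.4%, 13.7% and 13%, and 2.91% and 4.21% were called higher and lower in these comparisons. In inflamed against normal mucosa the partner counts lay near those shares. Csf3, which encodes the G-CSF that Csf3r binds and was chosen after its values were seen, averaged 6.21 in adenocarcinoma, 5.75 in inflamed mucosa and 6.21 in normal mucosa. It was the 1 partner gene called lower in inflamed than in normal mucosa, with a difference of -0.45 ± 0.14 (limma, adjusted p = 0.0336), and this call was lost in 12 of 27 alternative fits (adjusted p = 0.0514 to 1.0). Socs3, the inhibitor induced by G-CSF signalling among others, was higher in adenocarcinoma than in normal mucosa by 1.24 ± 0.25 (limma, adjusted p = 0.00161) and, against inflamed mucosa, by 1.09 ± 0.25 (adjusted p = 0.0156, or 0.0518 without inflamed mucosa 3). The adaptor Tyrobp was higher than in normal mucosa by 1.35 ± 0.33 in adenocarcinoma (adjusted p = 0.00653) and by 1.29 ± 0.35 in inflamed mucosa (adjusted p = 0.0157), whereas Trem1 was background-like in inflamed mucosa. Its relative Fcer1g was higher than in normal mucosa by 1.53 ± 0.36 in inflamed mucosa (limma, adjusted p = 0.00776) and by 1.02 ± 0.35 in adenocarcinoma (adjusted p = 0.0349). Of 5 NADPH oxidase subunits, which make the oxidative burst, 2 were higher in adenocarcinoma than in normal mucosa, Cyba by 0.74 ± 0.13 (adjusted p = 0.000811) and Cybb by 1.70 ± 0.47 (adjusted p = 0.0123), and Cybb was higher by 2.52 ± 0.49 in inflamed mucosa (adjusted p = 0.00224).

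Markers of some other cells moved with the groups too. Of 12 macrophage and monocyte markers, 8 were higher and 1 lower in adenocarcinoma than in normal mucosa, 8 higher and 0 lower in inflamed than in normal mucosa, and 1 higher and 2 lower in adenocarcinoma than in inflamed mucosa. Their mean level lay between 7.62 and 8.30 in adenocarcinoma, 8.12 and 8.66 in inflamed mucosa and 6.84 and 7.82 in normal mucosa, and the highest of the 13 means lay in inflamed mucosa, where the S100 pair was low. Mrc1, a macrophage mannose receptor, was higher than in normal mucosa by 2.64 ± 0.23 in inflamed mucosa (limma, adjusted p = 4.08e-06) and by 1.88 ± 0.22 in adenocarcinoma (adjusted p = 2.37e-05). Cd163, a scavenger receptor of resident macrophages, fell by 1.15 on the log2 scale from inflamed mucosa to adenocarcinoma (limma, adjusted p = 0.0056), where it was background-like on all 5 arrays. With 5.57 in place of those dim values its inflamed mean was 1.99-fold higher, and it did not pass a 2-fold threshold. Cd14, the lipopolysaccharide co-receptor of monocytes and neutrophils, was higher in adenocarcinoma than in inflamed mucosa by 0.86 ± 0.17 (1.81-fold, adjusted p = 0.00784). Smooth muscle markers, whose mean was 10.15 to 11.13 in inflamed mucosa, 8.50 to 8.77 in adenocarcinoma and 6.50 to 7.96 in normal mucosa, were lower in adenocarcinoma than in inflamed mucosa in 9 of 10. Of 5 eosinophil markers 1, Il5ra, was called, higher by 1.17 ± 0.28 in adenocarcinoma than in normal mucosa (adjusted p = 0.00566). Beside these counts, 16.4% of all genes were called higher and 19.4% lower in adenocarcinoma than in normal mucosa. In inflamed against normal mucosa it was 13.7% and 13%, and in adenocarcinoma against inflamed mucosa 2.91% and 4.21%. Of 10 red blood cell markers listed 3 were measured, no globin among them, and none was called by limma in any comparison. The part of these cells in the differences of the 8 genes was not tested.

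The genes whose levels were most like the list were found by Pearson correlation with the mean standardised profile of the 8 genes, as a description over arrays that share their groups. Over 13 arrays these were Il1r2 (r = 0.973), Cxcr2 (0.971), Il1b (0.967), Lif (0.960), Cxcl5 (0.959), Il1a (0.957), Mirt2 (0.951), Ccl2 (0.951), Adam8 (0.943) and Cxcl2 (0.937). Cxcl5 and Cxcl2 encode chemokines that Cxcr2 binds. Over the 9 prolapse arrays alone they were Adamts12 (0.990), Cxcr2 (0.985), Cp (0.983), Hmox1 (0.981), Col1a2 (0.978), Slc15a3 (0.978), Ptges (0.977), Col5a2 (0.976), Mmp9 (0.976) and Elk3 (0.975). Of the genes of the list themselves, Trem1 (0.976), S100a9 (0.964) and Csf3r (0.963) lay closest to the shared profile over 13 arrays, and Ltf (0.470) and Camp (0.069) farthest from it. Each of these genes is part of the profile, which raises its r, so these values cannot be set beside those of the other genes.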

How the data were processed

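Transcripts of 13 rectal pieces were measured on Mouse Gene 1.0 ST arrays. The deposited table holds a log2 RMA value for each transcript cluster, made by the authors with Expression Console 1.1 after scanning with GeneChip Command Console 2.0, per the labels and the series' design text. RMA subtracts background, equalises the arrays' distributions and merges probes, which removes differences in total RNA and compresses differences of dim genes. A genome build of the array is not named in the labels, and the number of arrays limits the precision.

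Of 35556 clusters, 21789 name 1 gene, 1621 several and 12146 were not listed. Symbols were updated through Entrez identifiers (21698 matched), and each gene was represented by its brightest cluster on average, which left 19938 genes, 999 of which had several. A single limma model (version 3.58.1, R 4.3.3, lmFit then eBayes, no filter) held the 3 groups, and calls were made at a Benjamini-Hochberg adjusted p below 0.05, and each listed gene also with two-sided exact permutation tests. The test was checked on simulated data with independent arrays, which held neither pairs nor an outlying array and so say nothing on those. Where nothing says that samples came from separate mice, p-values measure only the spread between these samples.

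The 8 genes and all gene lists were chosen with earlier results of these data known. Named beside them are up to 4 called genes with the smallest adjusted p per list and comparison, and the 10 genes most like the list's mean profile, without predicted genes, and exceptions are stated where they occur. Deviations from group means correlated at 0.319, 0.198, 0.199 and 0.387 in same-numbered adenocarcinoma and inflamed arrays. These arrays also share sex and age in the labels and were taken as paired. Differently numbered adenocarcinoma and inflamed arrays correlated at -0.318 to 0.185. Normal arrays correlated at -0.126 to 0.041 with the same numbers and were not taken as paired. Differently numbered adenocarcinoma and normal arrays reached 0.283, above 2 of the 4 pairs. The main fit left the pairs out. Alternatives were a replicate block, sex, age, the 2 groups alone, a filter on dim genes, other scalings, all clusters, other variance models, array weights, a 2-fold threshold and leaving out arrays. Promoter windows are RefSeq's on GRCm38.p6, and 8 of 8 measured genes matched.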

Additional observations from a re-analysis of the deposited data

Results flagged for a closer look

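Within each group, the highest or lowest array was compared with its nearest neighbour relative to the group's range (Dixon's criterion), in 195 groups of values. In 21 of them an array stood apart, where chance flags about 1 in 20, and 8 of the 21 concerned normal mucosa 1.

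Normal mucosa 1 stood above the other normal arrays in S100a8 (7.05, next 5.68), Ltf (11.53, next 6.0), Csf3r (6.98, next 6.01) and Il1r2 (7.61, next 6.31). The same array stood apart in the squamous genes Dsg3 (10.03, next 5.37) and Sprr1a (12.0, next 8.11), in the mean level of squamous markers (9.83, next 6.28) and in that of NADPH oxidase subunits (8.75, next 7.77). Without it S100a8 was higher in adenocarcinoma than in normal mucosa by 2.57 (limma, adjusted p = 0.00765) and Csf3r by 1.28 (adjusted p = 0.00254), as against 2.21 and 1.02 with it.

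Among adenocarcinomas, number 2 stood apart in Ltf (10.62, next 7.33), and number 4 in the macrophage and neutrophil gene Cd14 (10.46, next 9.86) and in the mean level of NADPH oxidase subunits (9.13, next 8.61). Among inflamed arrays, number 1 was lowest in the mean level of macrophage markers (8.12, next 8.60) and in Mrc1 (8.31, next 9.13) and highest in Dsg3 (5.29, next 4.80). Inflamed mucosa 2 was lowest in Chil3, a chitinase-like protein (4.09, next 4.45), and inflamed mucosa 3 highest in Ngp (6.12, next 5.19).

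Normal mucosa 2 was lowest in Cd177 (8.31, next 10.03) and highest in Chil3 (4.21, next 4.00) and in the mean level of red blood cell markers (6.90, next 6.26). Normal mucosa 6 was highest in the smooth muscle genes Acta2 (10.03, next 7.26) and Myh11 (7.93, next 6.86).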

How the results depend on the processing

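Of 656 alternative values of the 8 genes in the 3 comparisons, 604 kept their direction and their side of the threshold, 33 lost a call, 5 gained one and 14 changed sign, the last in differences that had not passed. Against a 2-fold threshold 2 genes were called in adenocarcinoma minus normal mucosa (S100a9 and Retnlg), 0 in inflamed minus normal mucosa and 1 in adenocarcinoma minus inflamed mucosa (S100a9). Over all genes that threshold called 277 higher and 144 lower, 264 and 14, and 15 and 19, in the same order. The main fit had called 3266 and 3867, 2730 and 2592, and 581 and 839. The inflamed minus normal count was 1 with the 2 groups alone and 1 without both normal mucosa 1 and adenocarcinoma 2. Over all genes those fits called 2189 higher and 1739 lower, and 2251 and 1716. Leaving out 1 array gave 1 to 2 calls there, 3 to 6 in adenocarcinoma minus inflamed mucosa (3 without inflamed mucosa 2, which cost S100a8 and Csf3r) and 6 throughout in adenocarcinoma minus normal mucosa. Over all genes, leaving out 1 array called 2133 to 2762 higher and 1391 to 3024 lower in inflamed minus normal mucosa. In adenocarcinoma minus inflamed mucosa it called 302 to 662 higher and 473 to 990 lower, both lowest without inflamed mucosa 2. In adenocarcinoma minus normal mucosa it called 2801 to 3286 higher and 2543 to 4374 lower. The sign of Ltf in adenocarcinoma minus normal mucosa turned without adenocarcinoma 2 (-0.62) and without normal mucosa 2, 4 or 6 (-0.28, -0.34 and -0.29), in a leave-one-out range up to 1.56. In inflamed minus normal mucosa, Csf3r turned to -0.02 with arrays centred on their medians, to -0.18 when centred on the median of named genes, and to between -0.09 and 0.00 without 1 of inflamed mucosa 2, 3 and 4 and normal mucosa 2, 4 and 6, in a leave-one-out range up to 0.26. Trem1 in that comparison turned to 0.00 without normal mucosa 1, alone or with adenocarcinoma 2, in a leave-one-out range down to -0.51. The cause of these turns was not tested.

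With the replicate block on all arrays, 6, 2 and 4 genes were called in the 3 comparisons (adenocarcinoma and inflamed mucosa against normal, then against each other), with it as a random effect 6, 2 and 5, and within the 4 pairs 5. Over all genes the block on all arrays called 3222 higher and 3341 lower, 2588 and 2166, and 461 and 722. As a random effect it called 3334 and 4020, 2801 and 2703, and 610 and 893, and within the 4 pairs 732 and 1175. Apart from Csf3r, the replicate block changed no call among the 8 genes.

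The scaling shifted the median of all genes. The median difference of all genes in the 2 comparisons with normal mucosa was -0.104 and -0.095, -0.109 and -0.122 with arrays centred on their medians, -0.24 and -0.285 when centred on the median of named genes, and -0.01 and -0.015 with cyclic loess. Calls over all genes in adenocarcinoma minus normal mucosa were 3266 higher and 3867 lower, 2491 and 8612 when centred on named genes, and 3400 and 2911 with cyclic loess. In inflamed minus normal mucosa they were 2730 and 2592, 1875 and 9510 when centred on named genes, and 2939 and 2053 with cyclic loess. In adenocarcinoma minus inflamed mucosa they were 581 and 839, and 728 and 694 when centred on named genes. Under these scalings the calls of S100a8, S100a9, Retnlg and Trem1 stayed. Centring on named genes also called Camp lower (-0.35, adjusted p = 0.0112) in adenocarcinoma than in normal mucosa and Clec4d higher (1.06, adjusted p = 0.0427) than in inflamed mucosa.

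The 8 genes each have 1 cluster, so there was no second cluster to try, and Chil3 and Ivl were below the filter on dim genes. Values near those of absent transcripts bound no level.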
